A study of Bos taurus with 10 samples.

Results

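Cattle that received no mineral supplement nevertheless differed in copper, and the 5 control pools cover the low-copper range of this series. They were chosen by their titles, Control 1 to Control 5, and make up 5 of the 10 pools sequenced. Each pool is a single library of poly(A) RNA from the mixed blood of 3 animals, so 15 animals stand behind the 5 pools if none was used again. The average copper level, for which the labels give no unit, was 23.42 in control pool 1, 24.58 in pool 2, 56.18 in pool 3, 63.37 in pool 4 and 95.61 in pool 5. The levels span a ratio of 4.08, or 2.03 doublings, and have a mean of 52.63 ± 30.06 (SD, n = 5). They fall into a low pair (pools 1 and 2), a middle pair (pools 3 and 4) and 1 highest pool. The 5 other pools, titled Copper supplementation, were of animals given a mineral supplement, at levels of 95.48 to 342.42. The lowest of these levels lay just below that of control pool 5. The labels give no breed, age, sex, herd or day of sampling for either group.

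Copper is taken up by cells through a membrane transporter, handed by small chaperone proteins to the enzymes that need it, and exported by copper-pumping ATPases. Its best known enzymes are cytochrome c oxidase, the last step of the respiratory chain, the copper-zinc superoxide dismutase, which removes superoxide, and ceruloplasmin, the ferroxidase that carries most plasma copper. In cattle, shortage of copper is a common deficiency of grazing animals and is linked to anaemia and to weaker function of neutrophils, the phagocytes of blood. RNA from blood comes from white cells, immature red cells and platelets together. A change in the number of cells of one type and a change in RNA per cell cannot be told apart in such samples, and a pool of 3 animals averages over them too. The files name genes only by Ensembl identifiers that no table used here pairs with a symbol, so transporters, chaperones, copper enzymes and blood cell markers could not be picked out, nor the labelled tissue checked against its markers. Genes are therefore described by identifier, level and behaviour.

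The control libraries held 24487010 to 32663198 counts on the annotated strand, and 15772 to 16196 genes had a count in a given pool. Of 24616 genes, 12979 had a mean of at least 10 counts over the 5 pools and were tested, and 6917 had no count in any of them. No pair of control pools was the same library, since chi-square per degree of freedom was at least 27.4 when their counts were compared. Control pool 1 had the largest share of unmapped reads, 16.71%, against 8.362 to 12.24% in the other 4. Of 8 library measures, none had a slope on log2 copper beyond the spread of the pools (exact permutation tests over all 120 orderings, two-sided, smallest p = 0.117, which was that of total counts, adjusted p = 0.3). The smallest p that 5 pools allow in such a test is 0.00833. Whether pools differ in herd or day of sampling is not in the labels, so a p-value here speaks only of variation among these 5 libraries.

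The comparison within controls asked which transcripts followed copper when no supplement was given. For each gene the slope is the change in log2 expression per doubling of copper. In edgeR's quasi-likelihood test 0 genes (0%) reached the threshold of 0.05 after Benjamini-Hochberg adjustment, the smallest adjusted p being 0.579. Before adjustment, 1084 genes had a p under 0.05, which is 8.35% of those tested. Of these, 633 (4.88%) had a negative slope, with lower levels at higher copper, and 451 (3.47%) a positive one. limma's voom called 0 genes at the adjusted threshold and put 1084 under the unadjusted one, of which 1003 were shared with edgeR. DESeq2's Wald test called 43 genes (0.331%), of which 39 had negative and 4 positive slopes, and every one of the 43 was under an unadjusted p of 0.05 in edgeR. Their smallest change was 1.34-fold per doubling in DESeq2. Without control pool 3, edgeR called 34 genes, 32 of them negative and 2 positive, and 23 of the 34 were also among those of DESeq2. Leaving out control pool 1, 2, 4 or 5 gave 0 calls, but the number under an unadjusted p of 0.05 fell to 415 without control pool 1, 401 without pool 2 and 514 without pool 5, and was 2312 without pool 3.

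The slopes were estimated with moderate precision. The median standard error was 0.153 log2 units per doubling and the median absolute slope was 0.138. For 11697 genes (90.1%) a 2-fold change per doubling lay outside the 95% interval of the slope, taken gene by gene, and for 7896 (60.8%) a 1.5-fold change did. Fitted slopes steeper than 2-fold per doubling were found for 49 genes, 30 positive and 19 negative. Precision rose with abundance, as the median standard error was 0.334 for genes under 1 CPM (counts scaled to library size with TMM factors), 0.218 from 1 to 10 CPM and 0.125 at 10 CPM or more. The share of genes under an unadjusted p of 0.05 was 4.78%, 5.69% and 10.2% in these 3 classes. Genes with a negative slope were the more abundant of the 2 groups, with a median of 46.5 CPM, against 25.1 CPM for those with a positive slope and 18.3 CPM over all genes tested.

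The 2 genes with the smallest p in each direction illustrate what such slopes look like in the pools. None passed the adjusted threshold in edgeR with all 5 control pools. Without control pool 3, edgeR's adjusted p was 0.0338 for ENSBTAG00000031797, 0.0473 for ENSBTAG00000013070, 0.0489 for ENSBTAG00000002580 and 0.0518 for ENSBTAG00000046611. ENSBTAG00000031797 was measured at 95.1, 80.5, 55.2, 51.1 and 38.1 CPM in control pools 1 to 5. Its levels therefore went down at each step of the copper level, with no overlap between the low pair and the rest. The slope was -0.58 with a standard error of 0.10 (95% interval -0.80 to -0.37, edgeR adjusted p = 0.579), and DESeq2's adjusted p was 0.00113. Over the 18 alternatives tried for this gene the adjusted p (edgeR, DESeq2 and limma) ranged from 0.00113 to 1. In the supplemented pools 1 to 5, at copper of 95.48, 185.99, 183.61, 342.42 and 330.75, the gene had 52.5, 54.0, 79.0, 62.2 and 59.2 CPM. These 5 values lay inside the range of the controls and had a slope of 0.08 ± 0.14 (SE, edgeR's quasi-likelihood test, unadjusted p = 0.591).

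ENSBTAG00000013070, the second gene with a negative slope, was measured at 30.8, 28.1, 15.3, 14.96 and 11.8 CPM in control pools 1 to 5. The low pair stood at about the same level, and so did the middle pair, so that the values formed 3 steps. Its slope was -0.68 ± 0.12 (SE, edgeR adjusted p = 0.579, DESeq2 adjusted p = 0.000748, range over 18 alternatives 0.000748 to 1). Supplemented pools 1 to 5 had 19.1, 16.7, 25.5, 30.4 and 27.5 CPM. In those pools the pair with the highest copper was the highest, and the slope was 0.35 ± 0.15 (SE, edgeR's quasi-likelihood test, unadjusted p = 0.0396). The control slope minus the supplemented slope was -1.03 ± 0.18 (SE), with an adjusted p of 0.28 in edgeR.

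ENSBTAG00000002580 had a positive slope, with 28.0, 23.1, 65.7, 61.5 and 58.8 CPM in control pools 1 to 5. Its levels made a single step between the low pair and the 3 other pools and did not increase from pool 3 to pool 5. The slope was 0.74 ± 0.16 (SE, edgeR adjusted p = 0.579, DESeq2 adjusted p = 0.00955, range over 18 alternatives 0.00955 to 1). Supplemented pools 1 to 5 had 12.3, 29.0, 42.5, 28.4 and 23.5 CPM, and all 5 lay below control pools 3, 4 and 5. Their slope had the same sign as in controls, 0.40 ± 0.31 (SE, edgeR's quasi-likelihood test, unadjusted p = 0.225). At nearly the same copper level, supplemented pool 1 had 12.3 CPM and control pool 5 had 58.8 CPM, a pair with 1 pool on each side and no test.

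ENSBTAG00000046611 had the smallest p among positive slopes and was close to the limit of detection. It had 1, 2, 21, 7 and 68 counts in control pools 1 to 5, or 0.043, 0.079, 0.90, 0.22 and 1.93 CPM. The middle pair differed from each other in level and only pool 5 was above 1 CPM. The gene was not tested without control pool 5, nor with edgeR's filterByExpr as count filter. Its place among the tested genes therefore rests on the pool where it was highest. The fitted slope was 2.39 ± 0.50 (SE, edgeR adjusted p = 0.579, DESeq2 adjusted p = 0.079, range over 16 alternatives 0.0518 to 1). The supplemented pools had 3 to 30 counts, which overlapped the control pools, and a slope of 0.16 ± 0.61 (SE, edgeR's quasi-likelihood test, unadjusted p = 0.797).

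**Figure D1:**
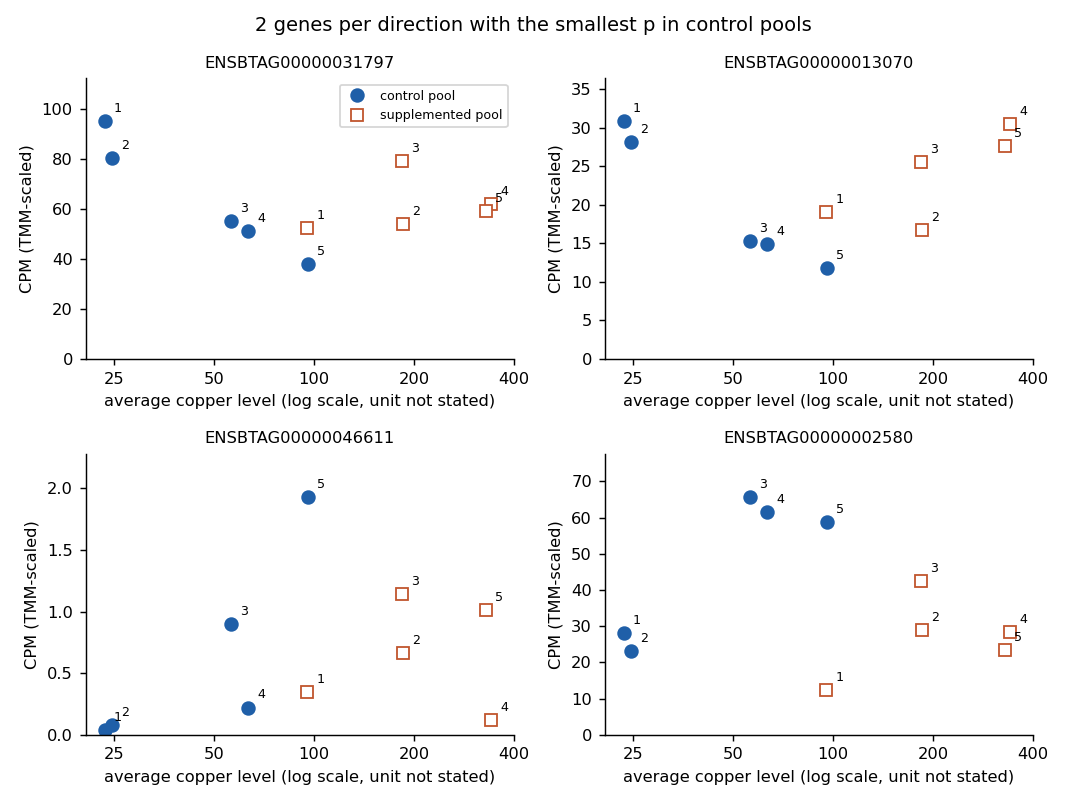
TMM-scaled CPM (vertical axis, from 0) of the 2 genes with the smallest p per direction against the average copper level (horizontal log axis, unit not stated) in 5 control pools (filled circles) and 5 supplemented pools (open squares), numbered as in the titles. In ENSBTAG00000031797 the control pools go from 95.1 to 38.1 CPM, while the supplemented pools lie between 52.5 and 79.0 CPM.

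Genes could also be described by whether the pools lined up with copper. In 697 genes (5.37% of those tested) both low pools lay above both middle pools and these above pool 5, and in 364 genes (2.8%) the order was the opposite. Both low pools lay above the 3 others in 1689 genes (13%) and below them in 1461 (11.3%). The 5 pools can be arranged as a pair, a second pair and a single pool in 30 ways. The arrangement given by copper held 1061 genes and ranked 8 of 30, where the median arrangement held 604. Pools 4 and 5 at one end, 1 and 2 in the middle and 3 at the other end gave the most, 2709 genes.

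The same question was put to the fitted slopes by assigning the 5 copper levels to the pools in other orders. Of the 120 orderings, 100 were fitted, with the labelled one among them. The labelled ordering gave 1084 genes under an unadjusted p of 0.05, and 27 of the 100, itself included, gave at least as many. Counts ran from 92 to 3707 with a median of 393. The counts depended on which pools received the lowest levels. With the 2 lowest levels on pools 4 and 5 the median was 2649 genes, on pools 1 and 3 it was 1830, and on pools 2 and 3 it was 1225. With these levels on pools 1 and 2, as labelled, the median was 764, and on pools 2 and 5 it was 112. At the adjusted threshold edgeR called at least 1 gene under 24 of the 100 orderings, and at most 598. DESeq2 called 43 or more genes under 24 of the 100, the labelled one included, with a median of 8 and a maximum of 2003.

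**Figure D2:**
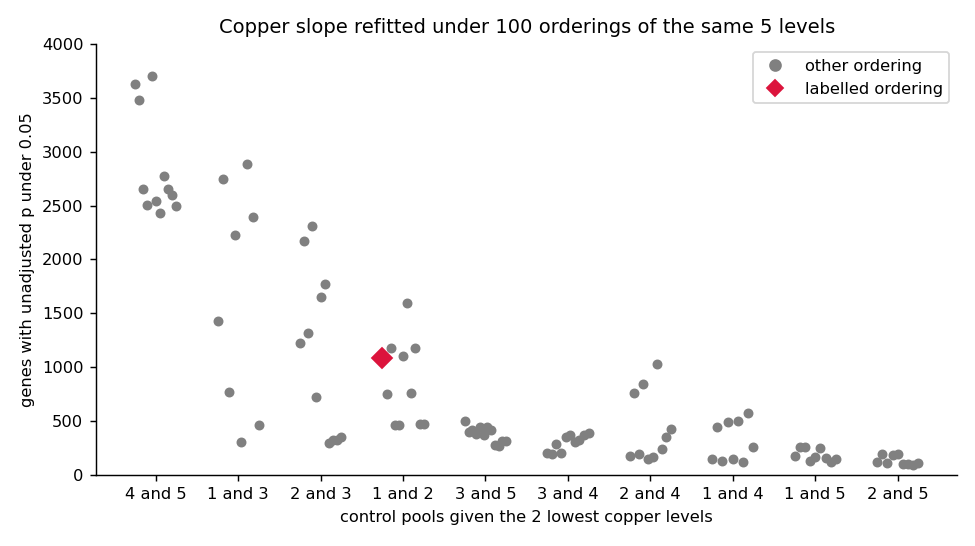
Number of genes with an unadjusted edgeR p under 0.05 (vertical axis) for each of 100 orderings of the 5 copper levels, grouped on the horizontal axis by the pair of control pools that received the 2 lowest levels. The labelled ordering (diamond) gave 1084 genes, below all orderings that put the lowest levels on pools 4 and 5.

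Whole profiles of the control pools differed most within the middle pair. Pools 3 and 4, with copper of 56.18 and 63.37, were 0.727 log2 units apart (root mean square over genes), and 14% of genes differed by more than 2-fold between them. This was the largest of the 10 distances. Pools 1 and 2, at the lowest copper, were the closest at 0.455 log2 units, followed by pools 4 and 5 at 0.492. Pools 1 and 5, at the ends of the copper range, were 0.551 log2 units apart and 5.68% of genes differed by more than 2-fold.

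The first principal component of the 5 pools held 46.6% of the variance. Pools 1, 2 and 3 had scores of -19.2, -11.7 and -33.0, and pools 4 and 5 had 44.6 and 19.3. Its extremes were thus the middle pair. The slope of this score on log2 copper did not exceed the spread of the pools (exact permutation test over 120 orderings, two-sided p = 0.325, adjusted over 4 components 0.644). TMM scaling factors separated the same pools, at 0.922 to 0.959 in pools 1, 2 and 3 and 1.095 and 1.079 in pools 4 and 5, and the part of this in the gene slopes was not tested. The second component held 22% of the variance and had scores of 26.0 and 15.2 in the low pair and -29.6, -2.94 and -8.70 in pools 3, 4 and 5 (exact permutation test, two-sided p = 0.15, adjusted 0.6). Of all variance between the pools, 28.5% lay along log2 copper, and 32 of 120 orderings gave at least that share (exact permutation test, one-sided p = 0.267), where the median ordering gave 22.4%.

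**Figure D3:**
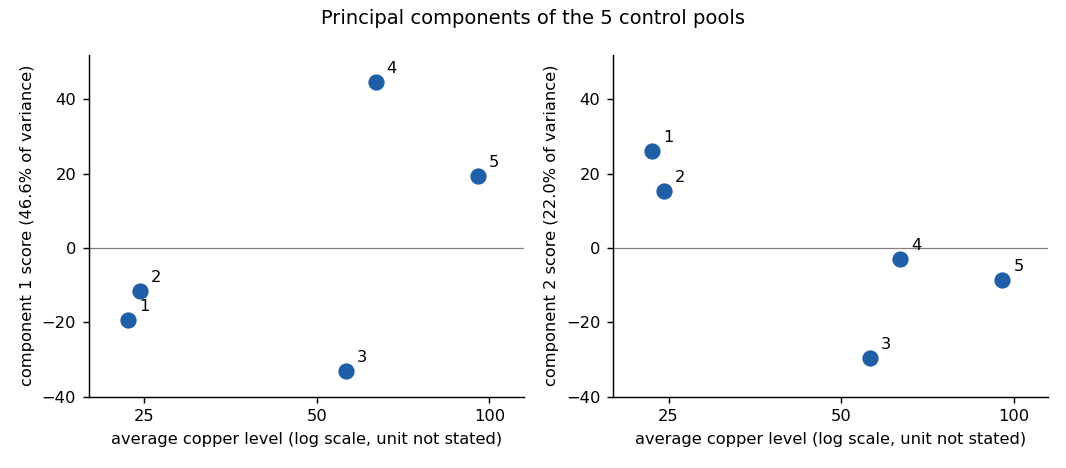
Scores of the 5 control pools, numbered as in the titles, on the first and second principal component (vertical axes, arbitrary units) against average copper (horizontal log axis, unit not stated). Pools 3 and 4, close in copper, have the lowest and the highest score on component 1, at -33.0 and 44.6, while the low pair has the highest scores on component 2.

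The 1084 genes were then read in the 5 supplemented pools, which had no part in choosing them. There the 2 groups of genes lay in the opposite direction for the most part. Of the 633 genes with a negative slope in controls, 627 were tested in supplemented pools, and 77 of them (12.3%) had a negative slope there, against 49.4% of the 12798 genes tested in both groups. Of the 451 with a positive slope, 448 were tested and 405 (90.4%) had a negative slope in supplemented pools. These shares are not given under other orderings of the copper levels, and genes of the same libraries are not independent replicates. The median supplemented slope was 0.169 for the first group, -0.207 for the second and 0.00233 for all genes. Few of these slopes stood out on their own. Of the 627 genes, 80 had a positive and 8 a negative slope under an unadjusted p of 0.05 in the supplemented pools, against a background of 2.34% positive and 1.57% negative. Of the 448, 25 were negative and 3 positive. The supplemented pools alone gave 0 genes (0%) at the adjusted threshold in edgeR and 517 (3.99%) under an unadjusted p of 0.05; other tools were not run on them. Of the 43 genes called by DESeq2 in controls, 40 had the opposite sign in supplemented pools, and 22 of those were under an unadjusted p of 0.05 there in edgeR. The share of opposite signs over all genes is not given beside this count. The 43 genes had a median of 70.3 CPM, against 18.3 CPM over all genes tested. At 10 CPM or more, slopes of all genes in the 2 groups of pools were negatively correlated (Pearson's r = -0.599).

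Median levels of the 627 genes, as log2 CPM relative to the mean of the control pools, were 0.33 in both low pools, 0.02 in pool 3, -0.27 in pool 4 and -0.42 in pool 5. In supplemented pools they were -0.11 in pool 1, -0.25 in pool 2, 0.11 in pool 3, 0.23 in pool 4 and 0.16 in pool 5. The control values chose the genes and only describe them. Among the supplemented pools, the levels of pools 4 and 5, at the highest copper, were above those of pools 1 and 2. Supplemented pools 2 and 3, at copper of 185.99 and 183.61, lay on opposite sides of the control mean. The 448 genes had medians of -0.34, -0.35, -0.10, 0.45 and 0.36 in control pools 1 to 5, so that pool 4 and not pool 5 was the highest. In supplemented pools 1 to 5 they were 0.14, 0.29, -0.19, -0.27 and -0.13. All 5 control pools lined up with copper, as a pair, a pair and a single pool, in 359 of the 633 genes with a negative slope and in 110 of the 451 with a positive one. Over all genes tested this order held downward in 697 (5.37%) and upward in 364 (2.8%). Both groups were chosen by their slope on these same pools, so a higher share among them is built in.

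**Figure D4:**
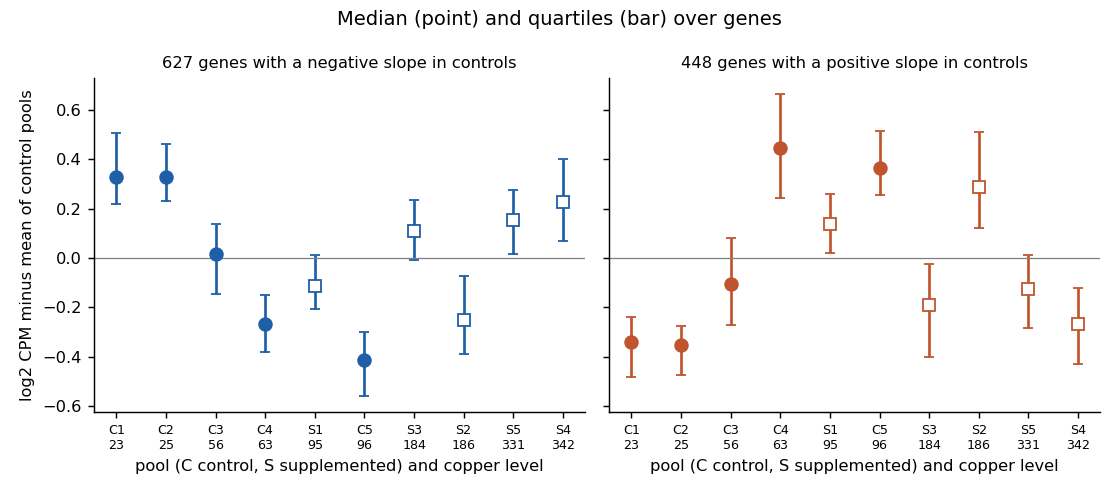
Median (point) and the range between the quartiles (bar) of log2 CPM relative to the mean of control pools for genes with an unadjusted p under 0.05 in controls, in 10 pools ordered by copper (control pools C filled, supplemented pools S open; second line, copper rounded). The genes were chosen on the control pools. The 627 genes with a negative slope go down to -0.42 in control pool 5 and have medians of -0.25 to 0.23 in the supplemented pools. The 448 genes with a positive slope reach their highest median, 0.45, in control pool 4.

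Across all 12798 genes tested in both groups, slopes in control and in supplemented pools were negatively correlated (Pearson's r = -0.326, Spearman's rho = -0.45), and at 10 CPM or more r was -0.599 over 7996 genes. No pool is shared between the 2 sets of slopes, but genes are not independent replicates and all genes of a library share its composition. On log2 CPM with least-squares slopes r was -0.353, and the 120 orderings of the control levels gave values of -0.376 to 0.398. Of these, 20 were as far from 0 in either direction, the labelled one included, and 8 were as low or lower. The first principal component of all 10 pools held 34.1% of the variance. Its scores were -16.8, -11.7, -30.7, 41.6 and 18.6 in control pools 1 to 5 and 13.4, 28.3, -23.9, -15.7 and -3.08 in supplemented pools 1 to 5. High scores therefore sat at the upper copper levels of the controls. Among the supplemented pools the lowest and highest scores fell at nearly the same copper, -23.9 at 183.61 and 28.3 at 185.99. The score was 13.4 at 95.48 and negative at 330.75 and 342.42, so these pools did not line up with copper. With this component removed, Pearson's r was -0.0503, and 105 of the 120 orderings gave an r at least that far from 0. Spearman's rho was -0.195. Of the genes with a negative slope in controls 30% then had a negative slope in supplemented pools, and of those with a positive slope 70.3%, against 49.4% of all genes. With the second component removed as well, the direction turned, with r of 0.604 and rho of 0.573. The components were computed from the same pools as the slopes, and their part in the correlation was not tested.

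**Figure D5:**
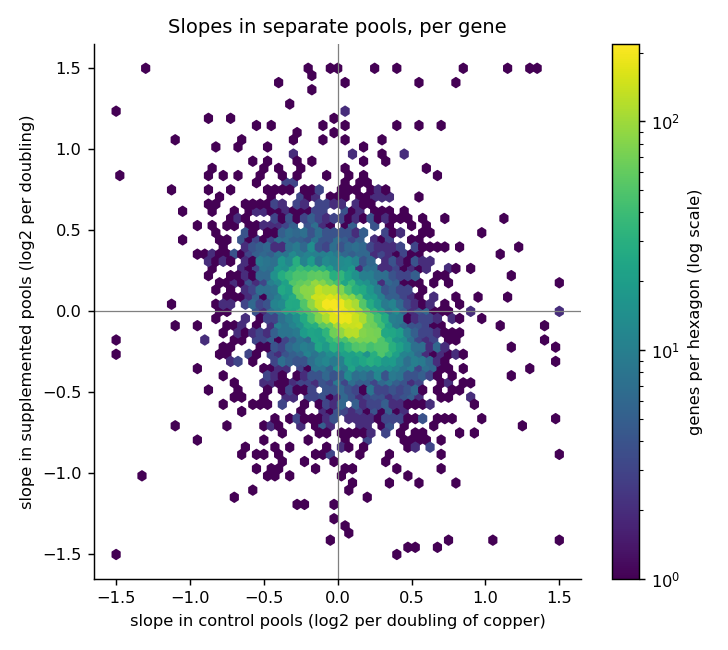
Slope on log2 copper per gene in 5 control pools (horizontal axis) and in 5 supplemented pools (vertical axis), in log2 units per doubling, for 12798 genes, with the number of genes per hexagon in colour on a log scale and 22 genes drawn at the axis limit of 1.5. The cloud runs from upper left to lower right, with Pearson's r of -0.326.

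Per gene, the difference between the slopes was tested in 1 model that held both groups. The edgeR test called 0 genes (0%, smallest adjusted p = 0.28), while 1706 genes (13.2%) were under an unadjusted p of 0.05, 956 with a lower and 750 with a higher slope in controls. DESeq2's Wald test called 146 of the 12956 genes tested, 113 lower and 33 higher in controls, and limma's voom called 0. Counts under other orderings of the copper levels are not given for this difference. The median standard error of a difference was 0.221 log2 units per doubling. The unadjusted count moved with single libraries, to 855 without supplemented pool 4, 1077 without control pool 2 and 1090 without supplemented pool 1. Without control pool 5 it was 1262, split evenly into 631 lower and 631 higher. With the replicate number as a block, edgeR called 0 genes and 2405 were under an unadjusted p of 0.05, of which 1172 were lower and 1233 higher in controls. That number rises with copper in the control pools, so the block is not independent of it.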

How the data were processed

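The submitters' processing notes name STAR 2.5.1b, the build UMD3.1 and HTSeq without its version, for stranded poly(A) libraries; which tool did what is not given in the sources used here. Values as deposited are raw read counts per Ensembl gene, 1 table per pool. The strand column holding 97.5% of the stranded counts of control pools was used. Reads given to no gene (36.09 to 44.23% of reads in control pools) stayed out. The reference table of 37063 genes matched 0 of the 24616 identifiers, so 27 gene lists were not used.

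Counts of the 5 control pools were filtered (mean of at least 10), scaled with TMM and fitted with edgeR 4.0.16 (R 4.3.3) on log2 copper, with Benjamini-Hochberg adjustment and a threshold of 0.05. Residual degrees of freedom were 3, and 9.09 with moderation across genes. The models for the supplemented pools and for the difference of slopes used the same filter on their own pools. Printed CPM values are scaled over all 10 pools, and log2 CPM used a prior count of 2. Alternatives were DESeq2 1.42.0 (test, and its size factors in edgeR), limma 3.58.1 voom, other count filters, unstranded counts, copper untransformed or ranked, a spread shared over 10 pools, a robust spread, the first component as covariate, the replicate number as a block, and leaving out each pool. The slope test was tested on simulated data. The named genes are the first 2 identifiers per direction by p. The pools, lists and tests were chosen with earlier results of these data known; the variance share along copper, DESeq2 under other orderings, the 2-step copper scale, the counts of pools lined up with copper, the read-out in supplemented pools and removal of components were added after seeing the data.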

Additional observations from a re-analysis of the deposited data

How the results depend on the processing

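For the copper slope within control pools, 16 of 18 alternatives gave 0 genes at the adjusted threshold. DESeq2's Wald test gave 43, and leaving out 1 control pool gave 0 to 34, the 34 being without control pool 3; the cause was not tested. The count under an unadjusted p of 0.05 was 401 to 2312 with 1 control pool left out and 439 with the replicate block, and within 1.5 times the 1084 under the 12 other alternatives. In the control pools the replicate number rises with copper, so the block and the slope share their order. The block fit also includes the supplemented pools. For the difference of slopes, DESeq2 gave 146 of 12956 genes, and 15 of 16 alternatives gave 0, also with each of the 10 pools left out. Opposite-strand share of reads reversed its slope on the copper level itself (0.000221 percentage points per unit of copper, adjusted p = 0.967). With 1 control pool left out, the slope of that share ranged from -0.283 to 0.161, of unmapped reads from -3.12 to 1.36 and of multimapping reads from -0.847 to 0.0244 percentage points per doubling (exact permutation tests over pools). With 4 pools such a test cannot go below 0.0417. The slope of the first component was 13.5 to 27.7 when 1 pool was left out. The sign of a component is arbitrary, and in the main fit it was set so that control pool 4 had a positive score. The shared sign over the 7 alternatives is therefore not read as a result. The titles number both groups 1 to 5; deviations from the group means were correlated at -0.28 to 0.43 across genes between pools of the same number, and 1 of 5 control pools matched its own number best, so no pairing was assumed. The share of negative slopes among genes under an unadjusted p of 0.05 was 58.4%, 57.5% with DESeq2 size factors, 45.3% without control pool 5 and 69.8% without control pool 2. The 2-step copper scale gave 0 genes and 855 under the unadjusted p. Depth limits the low genes most: the median standard error was 0.334 log2 units per doubling under 1 CPM and 0.125 at 10 CPM or more.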

Other observations

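With the first and second principal components of all 10 pools removed, the correlation across genes between control and supplemented slopes was positive (Pearson's r = 0.604, Spearman's rho = 0.573), where it was -0.353 with none removed and -0.0503 with 1 removed. Of the 120 orderings of the control levels, 119 gave a value at or below 0.604, within a range of -0.583 to 0.613. With both removed, 77.5% of the genes with a negative slope in controls also had a negative slope in supplemented pools, against 13.9% with none removed and 50% of all genes. The second component held 13.5% of the variance, with scores of 6.42, 14.5, -24.9, -1.93 and -13.6 in control pools 1 to 5 and -3.26, 0.18, -14.0, 26.7 and 9.99 in supplemented pools 1 to 5. The components were computed from the same pools as the slopes, and how many to remove was chosen after the data were seen, so the sign of this relation depends on that number.

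With the first component of the 5 control pools as a covariate, edgeR called 0 genes for copper and put 1621 under an unadjusted p of 0.05, of which 646 were among the 1084. The smallest adjusted p was then 0.157. The component was computed from the same 5 libraries as the slopes, so it takes up variation among them by construction. Counts under other orderings of the copper levels are not given for this fit.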
